A study of Homo sapiens with 6 samples.

Results

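Macroautophagy genes and selective autophagy receptors were examined in HK-2 cells, an immortalised line of human renal proximal tubular epithelium, with and without TEPP-46, a small molecule that activates the glycolytic enzyme pyruvate kinase M2. The set consisted of 45 listed gene symbols, which were found through their Ensembl identifiers among the 29483 genes of the deposited table. The rule names the symbols and applies no threshold to a measured value, but the list was drawn up with earlier results of these data known. All 6 libraries came from cells kept in medium with 25 mM glucose (HG) for 7 days. The control group (3 libraries) received nothing further, and the case group (3 libraries) received 10 μM TEPP-46 for 1 day. A vehicle in the control group was not named in the sources used here, and the series holds no group in normal glucose. Both groups rest on a single cell line. The study describes its replicates as independent and treated separately, and P-values measure the spread between these 6 libraries.

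Autophagy delivers cytoplasm to the lysosome inside a double membrane. A kinase complex around ULK1 and a lipid kinase complex around BECN1 start the membrane, ATG2 proteins and ATG9A bring lipid to it, and a conjugation machinery attaches the small ATG8 proteins (the LC3 and GABARAP families) to it. Receptors such as p62, the product of *SQSTM1*, bind both the cargo and ATG8 proteins, and are degraded together with the cargo. In the kidney, the proximal tubule depends on this route to renew mitochondria and to clear aggregates. The values here are levels of RNA, and neither LC3 lipidation nor the rate at which autophagosomes were degraded was measured.

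FPKM is the number of fragments counted on a gene, divided by its length and by the reads counted on genes in the library. Of the 45 genes, 44 were abundant enough to be tested, that is, their FPKM averaged 0.5 or more. The exception was *GABARAP*, which is described with its family below. In the case group, 7 of the 44 genes were upregulated: the receptors *SQSTM1* and *OPTN*, the ATG8 genes *MAP1LC3B* and *GABARAPL1*, the conjugating enzyme *ATG3*, the lipid sensor *WDR45*, and the mitophagy receptor *BNIP3*. None was downregulated by limma at an adjusted P-value of 0.05, although 5 had an unadjusted P-value under 0.05 in that direction (against 11 upward). Over all 13599 tested genes, such unadjusted P-values of limma numbered 2207 downward and 2288 upward. On whole reads, limma voom called 10 members up and 2 down, and 1283 and 1482 of all tested genes. Upregulated genes made up 15.91% of the tested members and 7.34% of the 13599 genes tested in all, and 5.84% of all tested genes were downregulated. The log2 fold changes of the 7 genes were small, from 0.39 to 0.58. Over the 44 genes the median log2 fold change was 0.03, against -0.002 over all tested genes, with 26 positive and 18 negative values. The median of the members was not stable, at 0.08 after quantile normalization, 0.09 without control replicate 1, 0.11 without case replicate 1, and below 0 with FPKM unscaled (-0.05) or as TPM (-0.16).

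Before the values, sequence in which these genes can be recognised is given. Upstream sequence is shown for 4 of the 7 upregulated genes, because these 4 held at least 1 of the motifs searched. RefSeq (GRCh38.p14) gave a window for 39 of the 45 genes and for all 7 upregulated ones, and the 250 bases before each start were searched on both strands for the E-box CACGTG, the core that MiT factors such as TFEB bind, the antioxidant element TGACNNNGC, the cyclic AMP element half-site TGACGT, and the C/EBP-ATF element TGATGNAAT. Capitals mark the matches, and the sequences are read 5′ to 3′ on the strand of the gene.
ATG3, chr3:112561963-112562212, minus strand: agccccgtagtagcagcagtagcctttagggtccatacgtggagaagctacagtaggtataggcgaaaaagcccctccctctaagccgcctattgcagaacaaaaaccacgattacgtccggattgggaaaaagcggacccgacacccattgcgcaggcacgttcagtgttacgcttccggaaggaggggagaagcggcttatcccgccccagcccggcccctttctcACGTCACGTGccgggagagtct
BNIP3, chr10:131981924-131982173, minus strand: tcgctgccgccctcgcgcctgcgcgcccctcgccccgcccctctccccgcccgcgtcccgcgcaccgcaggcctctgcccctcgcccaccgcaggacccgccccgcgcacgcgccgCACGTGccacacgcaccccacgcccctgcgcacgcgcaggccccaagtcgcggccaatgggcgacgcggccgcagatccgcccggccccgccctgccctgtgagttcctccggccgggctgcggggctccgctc
MAP1LC3B, chr16:87392086-87392335, plus strand: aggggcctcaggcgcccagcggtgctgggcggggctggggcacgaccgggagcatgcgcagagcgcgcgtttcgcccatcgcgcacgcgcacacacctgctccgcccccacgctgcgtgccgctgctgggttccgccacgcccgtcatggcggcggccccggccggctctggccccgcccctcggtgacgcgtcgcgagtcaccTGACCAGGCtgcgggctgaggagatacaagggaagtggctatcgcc
GABARAPL1, chr12:10212627-10212876, plus strand: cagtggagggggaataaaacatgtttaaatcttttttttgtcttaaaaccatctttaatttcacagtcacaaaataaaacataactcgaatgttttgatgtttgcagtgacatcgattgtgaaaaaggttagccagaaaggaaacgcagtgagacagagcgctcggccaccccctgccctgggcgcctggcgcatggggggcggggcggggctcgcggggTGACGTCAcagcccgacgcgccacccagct
The windows of *MAP1LC3B* and *GABARAPL1* lie inside the bounds of their genes in GENCODE v44, which places an earlier start, and those of *ATG3* and *BNIP3* reach into theirs. Counted backwards from the start, the E-box of *ATG3* began at -18 and overlapped a half-site on the other strand at -22, and the E-box of *BNIP3* began at -134. The antioxidant element of *MAP1LC3B* began at -46, and *GABARAPL1* held the half-site on both strands, at -30 and -28, as 1 palindrome. The E-box was found in 2 of the 7 upregulated genes and in 4 of the 39 members with a window (*TBK1*, *ATG14*, *ATG3*, and *BNIP3*). It was present in 7.73% of all genes with a window and in 11.3% of the tested ones. The antioxidant element was present in 3 of 39 members (13.2% of all genes and 15.8% of the tested ones), the half-site in 4 of 39 (8.62% and 12.99%), and the C/EBP-ATF element in none of the members (1.09% and 0.614%). These letters were not found in the windows of *SQSTM1*, *OPTN*, and *WDR45*, and a match is a description of the sequence only.

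The control libraries held 18634891, 17924033, and 17378710 counted reads in the order of their replicate numbers. The case libraries were somewhat shallower, with 16711934, 16047243, and 15363254 reads. Reads per tested member and library ranged from 33 to 22450. Since no molecular identifiers were used, reads that arose by PCR count more than once. Replicates of the case group spread more than those of the control group, with a median SD over tested genes of 0.19 against 0.09 on the log2 scale. Case replicate 2 lay nearest to the controls. Its reads differed from theirs by a chi-square of 24.5 to 26.4 per gene, against 42.9 to 54.7 for case replicates 1 and 3. Within the case group, replicates 2 and 3 were closest, at 12.5. Case replicate 1 was farther from both, at 28.4 from replicate 2 and 18.5 from replicate 3. Deviations of case replicate 2 from the control mean correlated less with gene length (Spearman's rho -0.15 over tested genes) than those of case replicates 1 and 3 (-0.40 and -0.35). The 7 members called with all libraries were also called without case replicate 2. The FPKM values are given as deposited, whereas fold changes are differences of log2(scaled FPKM + 0.1) with the standard error (SE) of limma. The added 0.1 slightly understates the fold changes of the least abundant genes. In bulk RNA, a change in the number of cells that express a gene and a change in the RNA per cell cannot be told apart.

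Marker genes were used to check the labelled cell type. In the list of epithelial and renal lineage, 7 of the 9 genes in the table exceeded an FPKM of 1, with *KRT19* the highest at a mean of 346, whereas the renal factors *PAX8* and *PAX2* stayed under 0.2 FPKM in every library. Of these 7 genes, 2 changed, in opposite directions. *CDH1*, which encodes E-cadherin of epithelial junctions, fell from 3.34, 3.50, and 3.40 FPKM to 1.83, 2.32, and 2.002 FPKM, a log2 fold change of -0.64 ± 0.11 (SE, adjusted P-value = 0.0156, limma). *VIM*, which encodes the intermediate filament vimentin, rose from 91.1, 96.1, and 97.1 FPKM to 150.1, 119, and 162 FPKM, a log2 fold change of 0.66 ± 0.13 (SE, adjusted P-value = 0.0204, limma). Defining markers of the differentiated proximal tubule were near 0, since none of the 11 genes in the table (of 15 listed) reached a mean FPKM of 1, 9 were under 0.1, and their sum was 0.89 to 0.96 in control libraries and 0.64 to 0.80 in case libraries, lower in every case library. Markers of other nephron segments, fibroblasts, endothelium, and immune cells also summed to under 1 FPKM in every library. The sum of the 4 immune markers in the table ran from 0.62 to 0.95 in the control group and from 0.23 to 0.31 in the case group, mostly through *CD14* (log2 fold change -1.24, adjusted P-value = 0.0384, limma), and the fibroblast markers summed to 0.37 to 0.45 and 0.17 to 0.30. The part of all these marker changes in the autophagy results was not tested.

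**Figure D1:**
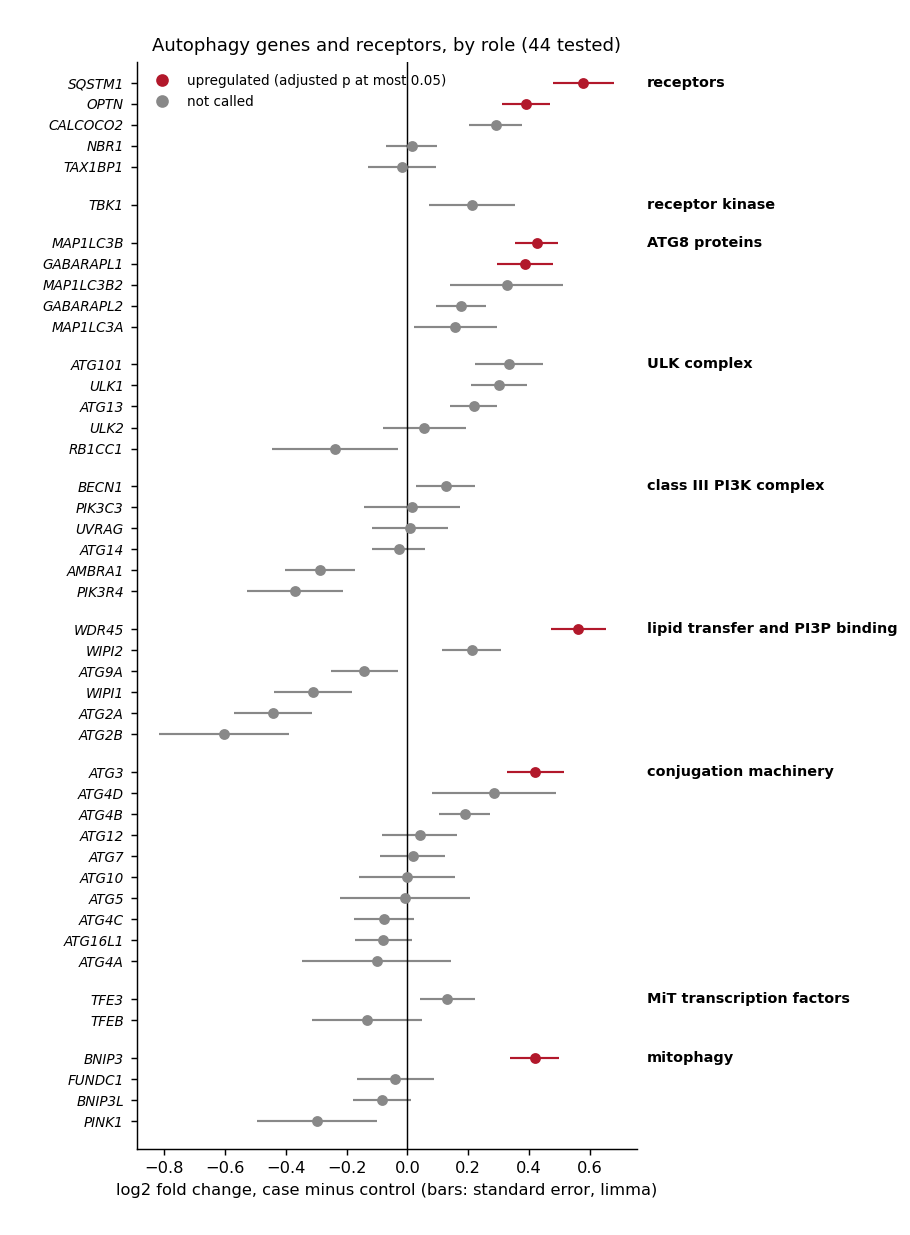
Log2 fold changes (x axis, case minus control) of the 44 tested autophagy genes, grouped by role and sorted within it; points are limma estimates, bars their SE, and red marks an adjusted P-value of at most 0.05. The 7 red points lie between 0.39 and 0.58, and the lowest point is *ATG2B* at -0.60.

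Among the 5 receptors, which carry ubiquitinated cargo to the membrane, limma called 2 up and none down. Of all 13599 tested genes, it called 7.34% up and 5.84% down. *SQSTM1* (ENSG00000161011, chromosome 5, 179806398 to 179838078 in GRCh38) was the most abundant member, with FPKM values of 113, 109.8, and 109.8 in the control group and 176, 153, and 144 in the case group. Every case library lay above every control library. Its log2 fold change was 0.58 ± 0.10 (SE, adjusted P-value = 0.0165, limma). *OPTN*, which encodes optineurin, a receptor for damaged mitochondria and bacteria that is activated by the kinase TBK1, had FPKM values of 22.9, 25.3, and 23.5 in the control group and 27.9, 29.6, and 31.7 in the case group. The groups did not overlap, and the log2 fold change was 0.39 ± 0.08 (SE, adjusted P-value = 0.0231, limma). Exons of *SQSTM1* share 22.39% of their bases with genes on the opposite strand (*MRNIP* and *MGAT4B*), and the strandedness of the libraries was not given in the sources used here, so that some of its reads could belong to these genes.

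The other 3 receptors did not pass the test by limma, and voom called 1 of them, *CALCOCO2*. *TAX1BP1*, a receptor related to *CALCOCO2*, measured 21.9, 21.5, and 22.3 FPKM in the control group and 16.7, 22.2, and 23.3 FPKM in the case group, so that case replicate 1 lay below and case replicate 3 above all controls. Its log2 fold change was -0.02 ± 0.11 (SE). *CALCOCO2*, which encodes NDP52, had a log2 fold change of 0.29 ± 0.09 (SE, adjusted P-value = 0.0618, limma). The adjusted P-value was 0.040 with voom and 0.0246 by limma without case replicate 1. *NBR1*, which works beside p62, had a log2 fold change of 0.01. *TBK1*, which phosphorylates optineurin and p62, measured 8.94, 8.08, and 8.20 FPKM in the control group and 7.09, 10.5, and 10.6 FPKM in the case group. Its groups overlapped through case replicate 1, and the log2 fold change was 0.21 ± 0.14 (SE, adjusted P-value = 0.329, limma). Without that library it was 0.38 with an adjusted P-value of 0.0268 (limma). The summed FPKM of the 5 receptors averaged 183 ± 1.32 (SD, n = 3) without and 235 ± 8.95 (SD, n = 3) with TEPP-46, and *SQSTM1* made up 64.05% of the sum over the 6 libraries.

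ATG8 proteins are coupled to the lipid of the growing membrane and hold the receptors there. Of the 5 tested genes, limma called 2 up and none down, against 7.34% and 5.84% of all tested genes. *MAP1LC3B* (chromosome 16, 87383953 to 87404779), the source of the LC3B used as a marker of autophagosomes, measured 24.2, 23.3, and 23.8 FPKM in the control group and 28.8, 30.4, and 31.7 FPKM in the case group. Each case library exceeded each control library, and the spread within a group was small against the step between them. The log2 fold change was 0.42 ± 0.07 (SE, adjusted P-value = 0.0153, limma). *GABARAPL1* (chromosome 12, 10212458 to 10223128), a member of the GABARAP branch, measured 6.36, 5.93, and 5.83 FPKM in the control group and 7.42, 8.16, and 6.99 FPKM in the case group. These groups did not overlap either, and the log2 fold change was 0.39 ± 0.09 (SE, adjusted P-value = 0.0331, limma). *GABARAPL2* (also called GATE-16), the second most abundant ATG8 gene, had 17.7 ± 0.55 FPKM (SD, n = 3) without and 19.0 ± 1.56 (SD, n = 3) with TEPP-46 and a log2 fold change of 0.18 ± 0.08 (SE, adjusted P-value = 0.179, limma). *MAP1LC3A* measured 6.15, 5.89, and 6.50 FPKM in control libraries and 7.10, 5.45, and 7.24 FPKM in case libraries, with case replicate 2 below all the others. Its log2 fold change was 0.16 (adjusted P-value = 0.451, limma), and 0.31 with an adjusted P-value of 0.0398 without case replicate 2.

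*MAP1LC3B* and *MAP1LC3B2* are nearly the same in their coding bases, which bears on how reads of these bases were shared between them. Bases outside the coding sequence, most of the counted length of *MAP1LC3B* (5313 bases), were not compared. The coding sequences, of 375 bases each, were identical at 373 positions (99.47%), with a longest identical run of 307 bases. The 41 bases around each difference are shown here with the differing base in capitals. Positions are counted from the first base of the start codon, with the base of *MAP1LC3B* first (C30G and A338G).
MAP1LC3B, coding bases 10 to 50: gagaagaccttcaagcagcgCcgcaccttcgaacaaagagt
MAP1LC3B2, coding bases 10 to 50: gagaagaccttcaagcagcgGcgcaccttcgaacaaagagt
MAP1LC3B, coding bases 318 to 358: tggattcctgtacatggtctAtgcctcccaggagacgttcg
MAP1LC3B2, coding bases 318 to 358: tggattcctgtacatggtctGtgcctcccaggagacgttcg
*MAP1LC3B2* (chromosome 12, 116548105 to 116576606) measured 1.49, 1.04, and 1.24 FPKM in the control group and 1.66, 1.59, and 1.29 FPKM in the case group. The groups overlapped, its values rested on 33 to 49 reads per library, and the log2 fold change of 0.33 ± 0.19 (SE) had an adjusted P-value of 0.255 (limma). The reads counted on either gene, which leave out any that the counting set aside as fitting both, were 2449, 2250, and 2232 in the control libraries and 2602, 2637, and 2624 in the case libraries. As a share of the reads of the library, this was 0.0128% ± 0.00030 (SD, n = 3) without and 0.0164% ± 0.00076 (SD, n = 3) with TEPP-46, without overlap. The summed FPKM, in which a read weighs more for the shorter *MAP1LC3B2* than for *MAP1LC3B*, averaged 25.0 ± 0.70 FPKM (SD, n = 3) in control libraries and 31.8 ± 1.31 (SD, n = 3) in case libraries. Other ATG8 pairs were less alike in their coding bases, from 48.91% for *GABARAP* and *MAP1LC3A* to 76.64% for *GABARAP* and *GABARAPL1*.

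*GABARAP* was listed at 0, 0.049, and 0.13 FPKM in the control group and 0.053, 0.028, and 0.057 FPKM in the case group, with 0 to 5 reads per library, and was not tested. In GENCODE v44, 48.23% of its exon bases are shared with other genes, and 35.42% on the same strand. A count that leaves out reads shared between overlapping genes would lower such a value, and whether this was so here was not tested. The 6 ATG8 genes together summed to 55.0 ± 1.54 FPKM (SD, n = 3) in control libraries and 64.9 ± 2.74 (SD, n = 3) in case libraries. *MAP1LC3B* contributed 45.08% of the sum.

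**Figure D2:**
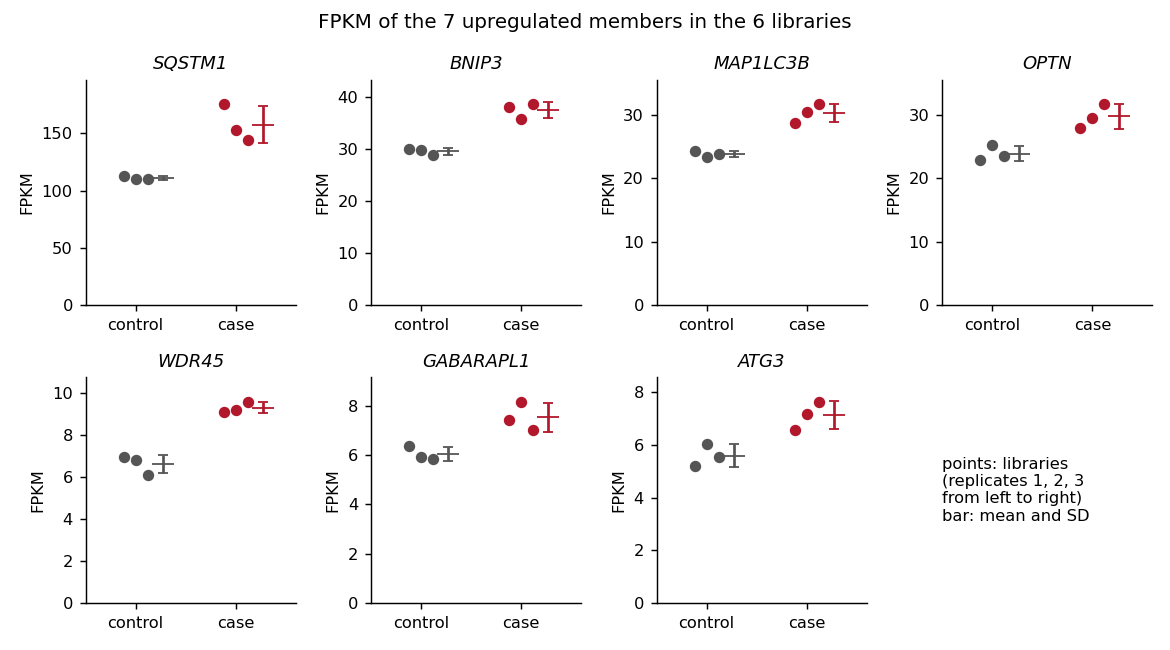
FPKM as deposited (y axes from 0, a panel per gene) of the 7 upregulated members in the control (grey) and case (red) libraries, with the mean and SD beside the points. In every panel the case libraries lie above the control libraries (for *SQSTM1*, 144 to 176 against 109.8 to 113), and each panel has its own axis.

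None of the 5 genes of the ULK complex, which receives the signals of mTORC1 and AMPK, passed the test by limma. The 3 genes *ULK1*, *ATG13*, and *ATG101* nevertheless had positive log2 fold changes with unadjusted P-values under 0.05 (limma) and no overlap between the groups. Such a P-value upward was seen for 2288 of all 13599 tested genes. After scaling, 19.5% of all tested genes were higher in every case library than in every control library. By limma voom, *ULK1* and *ATG101* were called. After quantile normalization limma called *ULK1* as well (0.34, adjusted P-value = 0.0468), and 8 members were up in that fit. *ULK1*, the kinase itself, measured 4.94, 4.74, and 4.58 FPKM in the control group and 5.78, 5.68, and 5.27 FPKM in the case group, a log2 fold change of 0.30 ± 0.09 (SE, adjusted P-value = 0.0668, limma). *ATG101*, which stabilises *ATG13*'s product, measured 24.8, 23.3, and 24.9 FPKM and 33.0, 28.8, and 26.0 FPKM, a log2 fold change of 0.33 ± 0.11 (SE, adjusted P-value = 0.0807, limma). Case replicate 3 of this gene lay only just above the controls. *ATG13* had a log2 fold change of 0.22 ± 0.08 (SE, adjusted P-value = 0.0948, limma). *RB1CC1*, the scaffold FIP200, measured 8.53, 9.06, and 8.18 FPKM in the control group and 4.53, 8.72, and 8.24 FPKM in the case group, so that its negative log2 fold change of -0.24 rested on case replicate 1 alone and was 0.03 without that library. *ULK2* had a log2 fold change of 0.05.

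The class III PI3K complex makes the phosphatidylinositol 3-phosphate (PI3P) that marks the site of membrane growth, and none of its 6 genes passed the test by limma or voom. Unadjusted P-values under 0.05 (limma) were seen for 2 of them, both with a negative log2 fold change. Over all 13599 tested genes, 2207 had such a P-value in that direction. *BECN1*, the regulatory subunit Beclin 1, measured 5.73, 4.85, and 5.45 FPKM in the control group and 5.25, 5.95, and 5.41 FPKM in the case group. The groups overlapped widely, and the log2 fold change was 0.13 ± 0.10 (SE, adjusted P-value = 0.395, limma). *PIK3R4*, the regulatory kinase VPS15, measured 5.21, 5.21, and 4.31 FPKM and 2.98, 4.65, and 3.27 FPKM, with case replicate 2 inside the range of the controls and a log2 fold change of -0.37 ± 0.16 (SE, adjusted P-value = 0.146, limma). Without case replicate 2 it was -0.53 with an adjusted P-value of 0.0222 (limma). *ATG14*, which directs the complex to the early membrane, had a log2 fold change of -0.03. *AMBRA1*, a BECN1 partner named after its values were seen because its groups did not overlap, had a log2 fold change of -0.29 ± 0.12 (SE, adjusted P-value = 0.128, limma).

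Genes of lipid transfer and PI3P binding held both the second largest positive and the most negative values among the members. *WDR45* (X chromosome, 49074433 to 49101170), which encodes the PI3P sensor WIPI4, measured 6.93, 6.79, and 6.10 FPKM in the control group and 9.11, 9.17, and 9.59 FPKM in the case group. The case libraries stood close together and clear of the controls, and the log2 fold change was 0.56 ± 0.09 (SE, adjusted P-value = 0.0140, limma). Exons of *WDR45* share 14.39% of their bases with another gene on the same strand. *ATG2A* and *ATG2B* encode the bridges through which lipid flows and which the product of *WDR45* binds. *ATG2A* measured 12.05, 12.3, and 11.8 FPKM in the control group and 9.71, 8.65, and 7.05 FPKM in the case group. Every case library lay below every control library, yet the log2 fold change of -0.44 ± 0.13 (SE) had an adjusted P-value of 0.0572 (limma) and did not pass. It passed with voom (0.0198), without case replicate 1 (0.0158), with FPKM unscaled (0.0321), with a minimum mean FPKM of 1 (0.0471), and as TPM (0.0164).

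*ATG2B* measured 2.53, 2.57, and 2.61 FPKM in the control group and 1.15, 2.34, and 1.43 FPKM in the case group. Case replicate 2 lay close to the controls and the other case replicates far below, and the log2 fold change of -0.60 ± 0.21 (SE) had an adjusted P-value of 0.0953 (limma). Without case replicate 2 it was -0.85 with an adjusted P-value of 0.00868 (limma), and voom on all libraries gave -0.63 with an adjusted P-value of 0.0239. *ATG9A*, the scramblase of the seed vesicles, had a log2 fold change of -0.14 and *WIPI2*, which recruits the conjugation machinery, one of 0.21 (0.29 with an adjusted P-value of 0.0428 by limma without case replicate 2). Exons of *ATG9A* share 38.8% of their bases with another gene. *WIPI1*, named after its values were seen, was lower in every case library with a log2 fold change of -0.31 ± 0.13 (SE, adjusted P-value = 0.133, limma).

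The conjugation machinery joins ATG8 proteins to lipid much as ubiquitin is joined to proteins. Of its 10 genes, 1 rose, against 7.34% of all tested genes. *ATG3* (chromosome 3, 112532510 to 112562046), the E2-like enzyme that hands ATG8 proteins to phosphatidylethanolamine, measured 5.20, 6.04, and 5.54 FPKM in the control group and 6.58, 7.17, and 7.65 FPKM in the case group. The groups did not overlap, although control replicate 2 came near case replicate 1. The log2 fold change was 0.42 ± 0.09 (SE, adjusted P-value = 0.0295, limma). Of the proteases that prime ATG8 proteins, *ATG4B* had a log2 fold change of 0.19 ± 0.08 (SE, adjusted P-value = 0.160, limma) and *ATG4D* one of 0.29 ± 0.20 (SE), the latter with FPKM values from 9.26 to 15.03 within the control group. *ATG16L1*, which places the E3-like complex on the membrane, had a log2 fold change of -0.08. For *ATG5*, *ATG7*, *ATG10*, *ATG12*, *ATG4A*, and *ATG4C*, the log2 fold changes lay between -0.10 and 0.04, and all 6 genes had overlapping scaled values.

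TFEB and TFE3 are the MiT transcription factors that switch on autophagy and lysosomal genes, mainly by moving into the nucleus, and neither gene passed the test by limma or voom. *TFE3* measured 32.9, 34.7, and 32.1 FPKM in the control group and 36.5, 35.7, and 31.4 FPKM in the case group, with overlap and a log2 fold change of 0.13 ± 0.09 (SE, adjusted P-value = 0.346, limma). *TFEB* was far less abundant, at 1.93, 1.77, and 1.82 FPKM in the control group and 1.86, 1.25, and 1.69 FPKM in the case group. Its log2 fold change was -0.13 ± 0.18 (SE, adjusted P-value = 0.642, limma).

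Mitophagy removes mitochondria, either through receptors in their outer membrane or through the kinase PINK1. Of the 4 genes listed for it, 1 rose, against 7.34% of all tested genes. *BNIP3* (chromosome 10, 131967684 to 131981967), an outer membrane receptor known as a target of the hypoxia factor HIF-1, measured 29.9, 29.8, and 28.7 FPKM in the control group and 38.0, 35.6, and 38.6 FPKM in the case group. All case libraries lay above all control libraries, and the log2 fold change was 0.42 ± 0.08 (SE, adjusted P-value = 0.0201, limma). Its paralog *BNIP3L* (NIX) measured 29.5, 30.4, and 29.5 FPKM and 22.6, 28.6, and 29.3 FPKM, with case replicate 1 well below the controls and the others just below them. Its scaled values overlapped, and it had a log2 fold change of -0.08 ± 0.10 (SE). *FUNDC1*, a further outer membrane receptor, had a log2 fold change of -0.04. *PINK1* measured 4.87, 4.21, and 4.72 FPKM in control libraries and 4.79, 3.02, and 3.03 FPKM in case libraries, so that case replicate 1 lay among the controls and the others below them. Its log2 fold change was -0.30 ± 0.20 (SE, adjusted P-value = 0.323, limma), and -0.54 with an adjusted P-value of 0.0205 without case replicate 1. Of its exon bases, 41.73% are shared with its antisense RNA *PINK1-AS* and *MIR6084*.

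**Figure D3:**
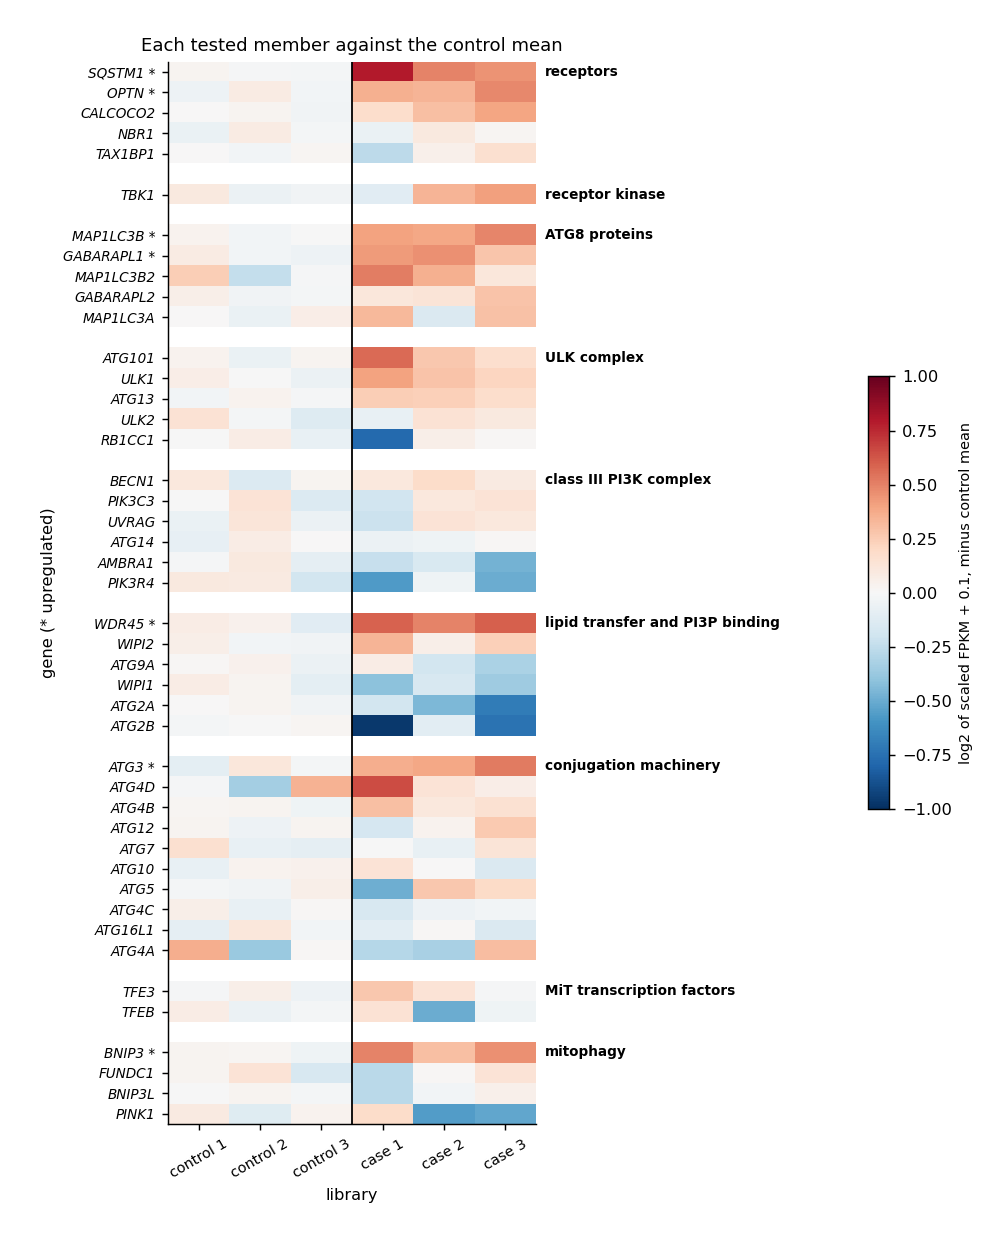
Each tested member (rows, by role) in each library (columns) as log2(scaled FPKM + 0.1) minus the mean of the control group; red is above and blue below that mean, and an asterisk marks the upregulated genes. Rows with an asterisk are red in all 3 case columns, whereas *RB1CC1* is deep blue in case replicate 1 only and *ATG2B* in case replicates 1 and 3.

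Across libraries, the median member lay above the control mean by 0.09, 0.10, and 0.13 on the log2 scale in case replicates 1, 2, and 3, where the median of all tested genes was within 0.01 of it. The number of the 44 members above the control mean was 23, 30, and 32 in these libraries, and 28, 22, and 13 in control replicates 1, 2, and 3. After scaling, 13 members were higher in every case library than in every control library and 4 were lower (*AMBRA1*, *ATG2A*, *ATG2B*, and *WIPI1*). Over all tested genes, 19.5% were higher and 20.4% lower in this way.

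The 37 members that were not called had log2 fold changes from -0.60 to 0.33 with adjusted P-values from 0.0572 to 0.998 (limma). A value that missed the threshold does not show that a gene stayed the same, since the SE of single members reached 0.24. All 7 calls depended on each control library, and all but that of *SQSTM1* on case replicate 3. Without any 1 of the 3 control libraries, none of the 7 genes was called by limma, although each kept an unadjusted P-value of 0.0158 or lower and adjusted P-values rose to at most 0.142. Calls over all genes fell as well, to 80, 56, and 71 upregulated genes without control replicates 1, 2, and 3, against 998 with all libraries. Without case replicate 3, *SQSTM1* alone was called, and without case replicate 1 or 2 the count of upregulated members was 9. Upregulated genes in all numbered 122 without case replicate 3, 1195 without case replicate 1, and 1816 without case replicate 2. In each of the 16 alternative fits the log2 fold changes of the 7 genes stayed positive, at 0.19 or more.

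**Figure D4:**
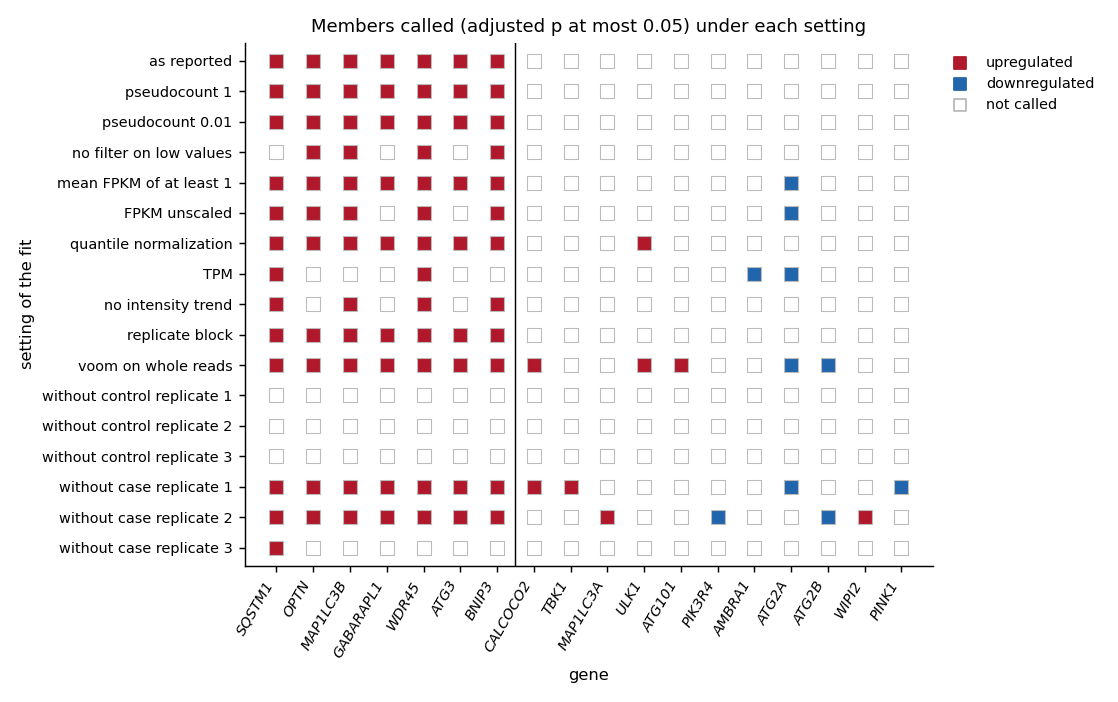
Calls at an adjusted P-value of at most 0.05 (red upregulated, blue downregulated, white not called) for each member called in at least 1 fit (columns), under each setting of the fit (rows). The line separates the 7 reported genes, all of which are white in the 3 rows that leave out a control library, whereas *WDR45* is red in every row that keeps all libraries.

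Scaling mattered for the direction of the weaker members. When the FPKM sums of all libraries were set equal (TPM), the median log2 fold change of all tested genes moved to -0.19 and that of the members to -0.16, and with FPKM unscaled they were -0.08 and -0.05. The members' median lay 0.03 above that of all genes in these fits and in the fit reported here, but 0.08 above it after quantile normalization, 0.09 without control replicate 1, and 0.11 without case replicate 1. As TPM, *SQSTM1* and *WDR45* were the upregulated members, and *AMBRA1* and *ATG2A* were downregulated. Gene length also moved with the fold changes. Across genes, which are not independent replicates, Spearman's rho of log2 fold change and gene length was -0.36 over the 13599 tested genes and -0.13 over the 44 members. Upregulated genes in all had a median length of 2969.5 bases and downregulated ones of 7174 bases, against 5325 bases for the 7 upregulated members. The part of length in the results was not tested.

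Beyond the members, 92 further genes of the pathway were listed, of which 84 were tested. Of these, 11 rose and 6 fell (13.1% and 7.14%, against 7.34% and 5.84% of all tested genes), with a median log2 fold change of 0.03. Of these 17 calls, *SESN2* and *HSPA8* alone held in all 10 alternative fits with all libraries and in all 6 that left out a library. The others held in 4 to 10 of the 10 and in 1 or 2 of the 6. Gene length moved with the log2 fold change over the 84 genes (Spearman's rho -0.47), and the median length was 3453 bases for the 11 genes that rose and 9386.5 bases for the 6 that fell. The part of length in these calls was not tested. The list of mTORC1 and AMPK, the nutrient and energy sensors that act on the ULK complex in opposite directions, held 29 of the 84 genes and accounted for 8 of the 11 (27.59% of its genes) and for 2 of the 6 (6.90%). *SESN2*, a stress-inducible leucine sensor that holds mTORC1 back, measured 20.7, 20.4, and 19.9 FPKM in the control group and 33.9, 31.1, and 31.2 FPKM in the case group. It had the largest positive log2 fold change of the 84 genes, 0.73 ± 0.08 (SE, adjusted P-value = 0.00603, limma). *RRAGC*, a Rag GTPase that recruits mTORC1 to the lysosome, had a log2 fold change of 0.67 ± 0.17 (SE, adjusted P-value = 0.0424, limma) on 51 to 90 reads per library, and was called in 5 of the 10 and 1 of the 6 alternative fits. *PRKAB1*, a regulatory subunit of AMPK, had one of 0.43 ± 0.10 (SE, adjusted P-value = 0.0328, limma). Exons of *RRAGC* share 23.12% of their bases with another gene on the same strand.

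Both genes of this list that fell by limma encode core subunits of mTORC1. *MTOR*, the kinase, measured 9.39, 9.93, and 9.12 FPKM in the control group and 5.81, 7.11, and 5.39 FPKM in the case group. The groups were well apart, and the log2 fold change was -0.56 ± 0.11 (SE, adjusted P-value = 0.0204, limma). *RPTOR*, its substrate-binding partner Raptor, had a log2 fold change of -0.48 ± 0.11 (SE, adjusted P-value = 0.0312, limma). Another subunit gene, *MLST8*, named after its values were seen, had a log2 fold change of 0.02 ± 0.14 (SE, adjusted P-value = 0.942, limma). The remaining 5 called genes of the list, which fall outside the rule for named genes and are given for completeness after their values were seen, were the Ragulator subunits *LAMTOR1*, *LAMTOR2*, and *LAMTOR4*, the AMPK subunit *PRKAG1*, and the AMPK-activating kinase *STK11*. Their log2 fold changes were 0.38, 0.31, 0.43, 0.32, and 0.38, in this order. Exons of *PRKAG1* share 61.81% of their bases with other genes, and those of *LAMTOR4* 18.44%. Voom called 1283 of all 13599 tested genes up and 1482 down. Of this list it called 10 genes up and 4 down. The latter included *PRKAA1* and *PRKAA2*, the catalytic subunits of AMPK, named after their values were seen. Both were lower in every case library but not called by limma, with log2 fold changes of -0.47 ± 0.16 (SE, adjusted P-value = 0.0886, limma) for *PRKAA1* and -0.52 ± 0.19 (SE, adjusted P-value = 0.101, limma) for *PRKAA2*.

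Of 14 tested genes among other core autophagy genes, 3 rose and 3 fell by limma. Voom called 3 of them up and 5 down, against 1283 and 1482 of all 13599 tested genes. The 5 included *TECPR1* (adjusted P-value = 0.0516, limma) and *DAPK1* (adjusted P-value = 0.0572, limma), named after their values were seen. *TRIM16*, which builds autophagy complexes at damaged lysosomes, had a log2 fold change of 0.50 ± 0.09 (SE, adjusted P-value = 0.0161, limma), and *NRBF2*, a subunit of the BECN1 complex, one of 0.47 ± 0.11 (SE, adjusted P-value = 0.0309, limma). Exons of *TRIM16* share 28.72% of their bases with other genes. *EPG5*, a tether that lets autophagosomes fuse with lysosomes, measured 5.25, 5.12, and 4.83 FPKM in the control group and 2.31, 3.996, and 3.18 FPKM in the case group. Its case libraries were all lower but spread widely, with a log2 fold change of -0.62 ± 0.16 (SE, adjusted P-value = 0.0451, limma). *RUBCN*, which encodes Rubicon, an inhibitor of the UVRAG form of the BECN1 complex, had a log2 fold change of -0.41 ± 0.10 (SE, adjusted P-value = 0.0385, limma), though 54.9% of its exon bases are shared with other genes. *TECPR2* had one of -0.42 ± 0.11 (SE, adjusted P-value = 0.0428, limma). *WDR45B*, the paralog of *WDR45* (WIPI3), lay outside the rule for named genes and had a log2 fold change of 0.28 ± 0.07 (SE, adjusted P-value = 0.0410, limma).

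None of the 17 tested receptors of other cargoes (endoplasmic reticulum, mitochondria, ferritin, ribosomes, glycogen) was called by limma, where 1 had an unadjusted P-value under 0.05 above 0 and 3 below, and voom called 2 as downregulated. None of the 16 genes listed under autophagosome-lysosome fusion was called by limma or voom, with 1 unadjusted P-value under 0.05 (limma) in each direction. That list does not hold the tether *EPG5*, which fell and is given above with the other core genes. Over all 13599 tested genes, unadjusted P-values of limma under 0.05 numbered 2288 above 0 and 2207 below. Voom called 1283 of all tested genes up and 1482 down. In chaperone-assisted autophagy, 1 of 8 genes changed. *HSPA8*, the constitutive HSP70 chaperone that picks the substrates of chaperone-mediated autophagy, measured 275, 279, and 268 FPKM in the control group and 116, 115, and 124 FPKM in the case group. With no library of one group near the other, its log2 fold change was -1.13 ± 0.07 (SE, adjusted P-value = 0.00152, limma), the lowest of the 84 genes, and it was called in all alternative fits. Exons of *HSPA8* share 15.05% of their bases with other genes.

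**Figure D5:**
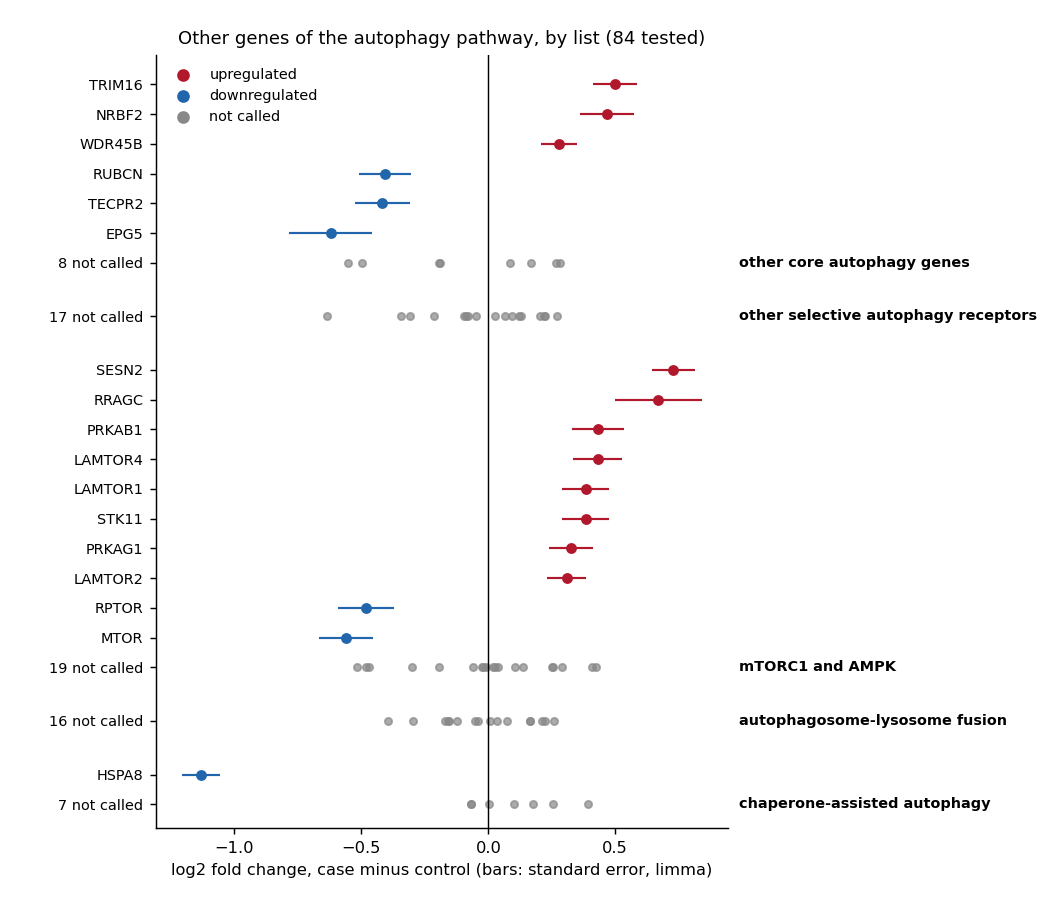
Log2 fold changes (x axis, case minus control) of the 84 tested further genes of the pathway, by list; each called gene has its own row with its SE (red upregulated, blue downregulated), and grey points on a shared row are the genes of the list that were not called. *HSPA8* lies alone at -1.13, and the called genes of mTORC1 and AMPK run from *MTOR* at -0.56 to *SESN2* at 0.73.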

How the data were processed

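RNA of 6 HK-2 libraries (3 control, 3 case) was sequenced as paired reads. Per the labels and the study's methods, reads that passed quality filters were mapped by the authors with HISAT2 2.1.0 to GRCh38.p13 and assigned to genes with HTSeq 0.6.0. The deposited FPKM values were made by the authors from these counts. Strandedness, RNA selection, and annotation version were not given in the sources used here.

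The steps of the FPKM values gave whole reads (tolerance 0.02) for 100.0% of the 27922 genes above 0, and hence the depth. For 12939 genes this was at the annotated exon length, and for 14983 at another whole length that was searched for. For genes with few reads, more than 1 length can fit, so their recovered reads are less certain. Libraries were scaled by median-of-ratios factors, and log2(scaled FPKM + 0.1) was compared in R 4.3.3 with limma 3.58.1 (intensity trend, no covariates) for the 13599 genes whose mean FPKM was 0.5 or more. P-values were adjusted over all of them by the Benjamini-Hochberg method (threshold 0.05), which gave 998 upregulated and 794 downregulated genes (662 and 1124 with FPKM unscaled, 383 and 2387 as TPM). limma voom on the recovered reads gave 1283 and 1482. Alternatives changed the pseudocount, filter, scaling, trend, replicate block, and libraries.

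Positions and exons came from GENCODE v44 (GRCh38), matched by identifier. Genes were named by a rule, namely members that were called, differed by 0.5 or more on the log2 scale, or ranked in the top 3 of their role by FPKM, 6 fixed genes (*SQSTM1*, *MAP1LC3B*, *MAP1LC3B2*, *BECN1*, *ULK1*, *TFEB*), and up to 5 called genes per pathway list. Other genes, such as *CALCOCO2*, *MAP1LC3A*, and *PINK1*, were named after their values were seen. Members and lists were chosen with earlier results of these data known.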

Additional observations from a re-analysis of the deposited data

How the results depend on the processing

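Of 640 values for 40 single genes under 16 alternatives, 514 kept their direction and side of the threshold, 101 lost and 13 gained the call, and 12 turned direction, none of them called. The turns under TPM were *GABARAPL2* (-0.024), *BECN1* (-0.07), *ATG4B* (-0.01), and *TFE3* (-0.069), and under quantile normalization *ATG14* (0.011). Leaving out a library gave ranges of -0.10 to 0.10 for *TAX1BP1*, -0.38 to 0.033 for *RB1CC1*, -0.071 to 0.011 for *ATG14*, -0.27 to 0.048 for *TFEB*, -0.15 to 0.01 for *BNIP3L*, and -0.13 to 0.073 for *FUNDC1*.

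Counts moved as follows, and the cause was not tested. Without a filter on low values, 329 genes rose and 191 fell, with 4 members up and 2 up and 1 down among the other pathway genes. Without the intensity trend, the counts were 436 and 416, with 4 members up and 2 up and 3 down. As TPM, 383 rose and 2387 fell, with 2 members up and 2 down, 2 and 18 other pathway genes, and a member median of -0.16. With FPKM unscaled, 662 genes rose, 1 member fell, and 5 other pathway genes rose and 10 fell. A minimum mean FPKM of 1 gave 1 downregulated member. Voom gave 1482 downregulated genes, 2 of them members and 12 other pathway genes. Quantile normalization left 7 other pathway genes up. Leaving out a library gave 56 to 1816 genes up and 14 to 1678 down, 0 to 9 members up and 0 to 2 down, and 1 to 14 other pathway genes up and 1 to 11 down. The log2 ratio of the summed scaled FPKM (0.32 for ATG8 genes, 0.44 for receptors, 0.42 for *MAP1LC3B* with *MAP1LC3B2*) was 0.24 and 0.35 unscaled for the first and last, 0.29 and 0.35 after quantile normalization for the receptors and the pair, and 0.12, 0.24, and 0.22 as TPM.

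Whether same-numbered libraries were set up together was not stated in the sources used here, and the fit reported here treated them as unpaired. Deviations of same-numbered libraries correlated at -0.05 to 0.10 and the other combinations at -0.18 to 0.12. With 3 libraries per group, such values cannot show whether the libraries were paired. With the replicate block, 848 genes rose and 762 fell, the 7 members stayed upregulated, and 6 other pathway genes rose. Few reads were behind *GABARAP* (0 to 5 per library) and *MAP1LC3B2* (33 to 49).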
